A study of Mus musculus with 8 samples.

Results

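Rmrp, Snord33, Snora3 and Snord35b are 4 short noncoding RNAs that work in the nucleolus, measured here in the tibialis anterior, the fast muscle that lifts the foot. They were picked out by gene name and selected on the array signal itself, since Rmrp and Snord33 were lower in Prep1deltaSM muscle than in Prep1f/+ muscle. They are 4 of the 27398 gene names on the array. The set was thus chosen by the signals of that comparison, so the difference between genotypes in these RNAs is described below without a test. All 4 passed the filter on dim probes. The array names 4 small nucleolar RNAs in all: Snord33, Snora3, Snord35b and Snora69. Snora69 was well above background on 2 of 8 arrays and did not pass the filter, so the set covers 3 of 3 measured small nucleolar RNAs.

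The 8 mice were males on the C57BL/6 background, aged 8 weeks, with 1 array per mouse. The 4 Prep1f/+ mice carry a floxed allele of Prep1, and the 4 Prep1deltaSM mice are those in which Prep1 was ablated in skeletal muscle. The Cre driver of that ablation, and whether the Prep1f/+ mice also carry a Cre, are not given in the sources used here. Prep1 is the protein product of Pknox1, a homeodomain transcription factor that binds DNA together with Pbx proteins. The comparison asks how its ablation changes gene expression in the muscle.

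RNase MRP is a ribonucleoprotein enzyme that cuts the precursor of ribosomal RNA, and Rmrp is its RNA part. RNA polymerase III transcribes Rmrp from a gene of its own, and mutations of the human gene cause cartilage-hair hypoplasia. Small nucleolar RNAs pair with ribosomal RNA and guide its chemical modification. Those of the box C/D class, such as Snord33 and Snord35b, guide ribose methylation with the protein fibrillarin. Those of the box H/ACA class, such as Snora3, guide the change of uridine to pseudouridine with the protein dyskerin. Most mammalian small nucleolar RNAs are not transcribed on their own but are trimmed out of the introns of host genes, many of which encode ribosomal proteins. The Rpl13a small nucleolar RNAs, Snord33 among them, are also known as mediators of lipotoxic and oxidative stress in cultured cells.

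Each of the 4 RNAs was read by 1 probe of 60 bases, and the probes are shown because they settle which part of each RNA, if not which processing form, was measured. They are printed 5′ to 3′ as the array files give them, with every CTGA in capitals. These letters form box D of the C/D class, but a match alone does not make a box D. The match in Snora3, which is of the H/ACA class, is such a case.
Rmrp: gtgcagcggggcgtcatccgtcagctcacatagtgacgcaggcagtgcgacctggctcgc
Snord33: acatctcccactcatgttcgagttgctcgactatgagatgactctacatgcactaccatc
Snora3: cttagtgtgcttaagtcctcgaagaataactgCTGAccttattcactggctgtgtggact
Snord35b: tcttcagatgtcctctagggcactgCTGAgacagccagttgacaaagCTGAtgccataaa

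In mm9, the build of the files, the Rmrp probe lies at chr4:43505692-43505751 on the minus strand and covers bases 181 to 240 of the RNA, which is 275 bases long in RefSeq (GRCm38.p6). The Snord33 probe lies at chr7:52382243-52382302 on the minus strand and covers bases 14 to 73 of 82. The Snora3 probe lies at chr7:116663671-116663730 on the plus strand and covers bases 26 to 85 of 120. The Snord35b probe lies at chr7:52378395-52378454 on the minus strand and covers bases 28 to 87 of 87. The Snord35b probe therefore reaches the 3′ end of its RNA, whereas the other 3 stop short of it.

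The CTGA motif was found 2 times in the Snord35b probe, 1 time in the Snora3 probe and 0 times in the Snord33 and Rmrp probes. Over all 41174 probes of the array, 28.3% hold CTGA on the printed strand and 48.4% on either strand, so a match in a probe of this length is common. The GC content was 66.7% for Rmrp, 46.7% for Snord33, 45.0% for Snora3 and 48.3% for Snord35b. The median over all probes was 40.0%. Only 1 in 20 probes exceeded 55.0%, and the Rmrp probe is among these. The longest run of bases shared with any other probe of the array was 12 for Rmrp, 14 for Snord33, 14 for Snora3 and 13 for Snord35b, so no other probe was a near copy of any of them.

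The labelling, by Agilent's Low RNA Input kit, starts from an oligo-dT primer, and most molecules of Rmrp and of the small nucleolar RNAs have no poly(A) tail. Whether the signals come from the mature RNAs, from host introns that were not removed, or from polyadenylated forms was not tested. Signal is the background-subtracted brightness of a spot, and values below are log2 signal relative to the 75th percentile of the same array, so that 0 is the level of that percentile. These values can be set against each other between arrays for 1 probe, but not between probes.

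Between 23787 and 27123 of the 43379 non-control spots were well above background, and 0 were saturated. Precision is limited by having 4 arrays a group. Pknox1 lay at -0.09, -0.31, -0.21 and -0.51 in Prep1f/+ replicates 1 to 4 and at -1.84, -2.08, -2.28 and -1.96 in Prep1deltaSM replicates 1 to 4, a difference of -1.76 (SE 0.13, adjusted p = 0.0072 by limma). It was the only 1 of 16016 genes (0.00624%) with an adjusted p under 0.05. With slide as a block its adjusted p was 0.062, and with normexp background correction and quantile normalization its difference was -0.89. Both genotypes were on every slide, with 1 array each on each of the 4. Prep1f/+ replicates 1 and 4 stood apart on the first principal component, with scores of 23.5 and 41.0 against -17.1 to 3.21 for the other 6 arrays, so results are also given without them. Besides genotype, strain, sex and age, the labels give a code for each sample, from which nothing is read here. The p-values measure the spread between these 8 mice.

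Rmrp was lower in all 4 Prep1deltaSM muscles than in any Prep1f/+ muscle. Its log2 level was 2.87, 2.93, 2.99 and 3.11 in Prep1f/+ replicates 1 to 4, on spots with a signal of 1210, 1200, 1560 and 1200. In Prep1deltaSM replicates 1 to 4 it was 1.68, 1.67, 1.83 and 2.32, on signals of 608, 625, 686 and 822. Replicate 4 of Prep1deltaSM was the highest of its group and still lay 0.56 below the lowest Prep1f/+ value. The group means were 2.98 ± 0.10 (SD, n = 4) and 1.87 ± 0.31 (SD, n = 4), a difference of -1.10 (SE 0.16) on the log2 scale, or 2.15-fold lower. Without Prep1f/+ replicates 1 and 4 it was -1.09. In tissue RNA, fewer cells that make an RNA and less of it per cell cannot be told apart.

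Snord33 had a difference of nearly the same size. Its level was 1.02, 1.38, 1.099 and 1.53 in Prep1f/+ replicates 1 to 4, with signals of 335, 409, 422 and 400. In Prep1deltaSM replicates 1 to 4 it was -0.07, 0.06, 0.08 and 0.54, with signals of 181, 206, 204 and 240. The groups did not overlap, and the gap between them was 0.48, with replicate 4 of Prep1deltaSM again the highest of its group. The means were 1.26 ± 0.24 (SD, n = 4) and 0.15 ± 0.27 (SD, n = 4), a difference of -1.10 (SE 0.18), or 2.15-fold lower, and -1.09 without Prep1f/+ replicates 1 and 4.

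Snora3 and Snord35b were dimmer spots, and their groups overlapped. Snora3 lay at -2.23, -1.75, -1.77 and -1.45 in Prep1f/+ replicates 1 to 4, on signals of 35.3, 46.8, 57.8 and 50.9. It lay at -2.23, -1.96, -2.64 and -2.14 in Prep1deltaSM replicates 1 to 4, on signals of 40.6, 50.7, 31 and 37.4. Only Prep1deltaSM replicate 3 was clearly under the range of the other group. The means were -1.80 ± 0.32 (SD, n = 4) and -2.24 ± 0.29 (SD, n = 4), a difference of -0.44 (SE 0.22).

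Snord35b lay at -2.71, -2.45, -3.12 and -2.50 in Prep1f/+ replicates 1 to 4, on signals of 25.2, 28.7, 22.6 and 24.5. Its values in Prep1deltaSM were -2.88, -2.78, -3.20 and -2.95, on signals of 25.9, 28.6, 21 and 21.4. Prep1f/+ replicate 3 lay inside the range of the Prep1deltaSM muscles, so 3 of 4 control muscles were above that range. The means were -2.70 ± 0.31 (SD, n = 4) and -2.95 ± 0.18 (SD, n = 4), a difference of -0.25 (SE 0.18). Without Prep1f/+ replicates 1 and 4 the difference was -0.16 for Snord35b and -0.48 for Snora3, and without Prep1f/+ replicate 3 that of Snord35b was -0.40.

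**Figure D1:**
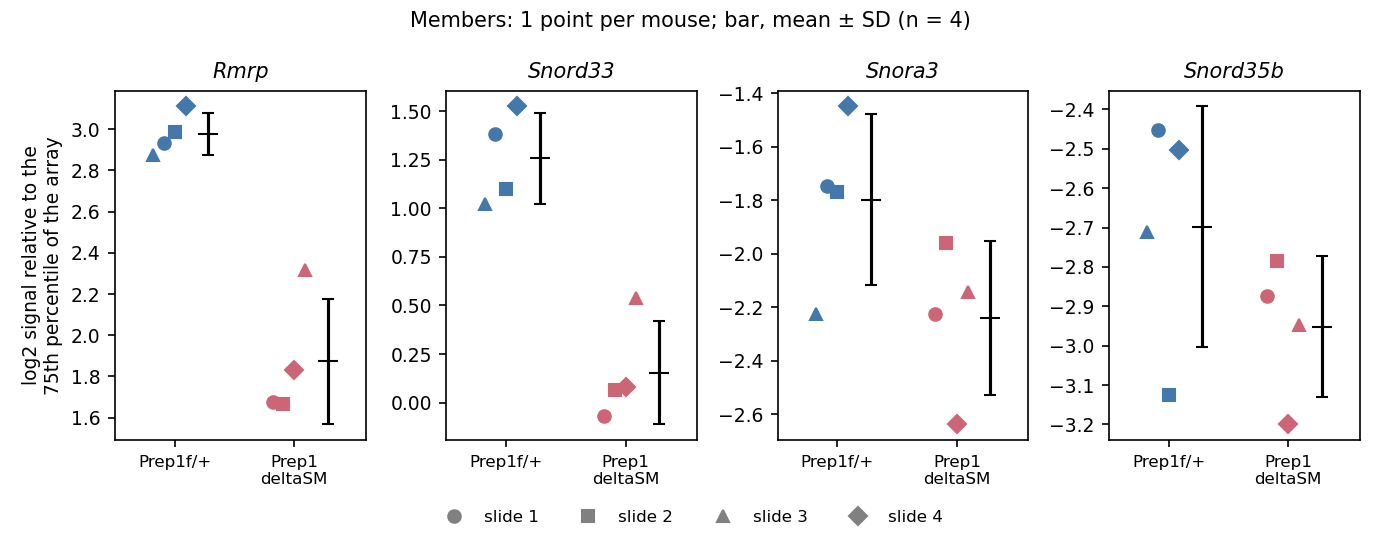
Log2 signal relative to the 75th percentile of the array (y axis, with a scale of its own in each panel) for Rmrp, Snord33, Snora3 and Snord35b in Prep1f/+ (blue) and Prep1deltaSM (red) muscle. Each point is 1 mouse, its shape is the slide, and the bars are mean ± SD (n = 4): the groups are apart for Rmrp and Snord33, by 0.56 and 0.48, and overlap for Snora3 and Snord35b.

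As background to these counts, 1079 of 16016 genes (6.74%) were lower with groups that did not overlap, and 101 (0.631%) were lower by at least 1 on the log2 scale. The set has 2 of 4 RNAs in each of these classes, Rmrp and Snord33, but these 2 chose the set, and nothing is read from the shares. All 4 RNAs were lower by their means, beside 62.7% of all genes, whose median difference was -0.07. The error that the scanner software gave each spot was at most 10.02% for Rmrp and Snord33, 11.0% for Snora3 and 12.7% for Snord35b. All 4 probes were well above background on all 8 arrays.

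Within slides 1 to 4, the difference between the Prep1deltaSM and the Prep1f/+ array was -1.26, -1.32, -0.56 and -1.28 for Rmrp. For Snord33 it was -1.45, -1.03, -0.48 and -1.45. Slide 3, which holds Prep1deltaSM replicate 4 and Prep1f/+ replicate 1, thus gave the smallest difference for both, and all 8 of these differences were below 0. As the groups of both do not overlap, these signs were fixed in advance. The slide 3 values are the gaps between groups given above. Snora3 differed by -0.48, -0.19, 0.08 and -1.19 and Snord35b by -0.42, 0.34, -0.24 and -0.70, so that each had 1 slide with the opposite sign, and both had their largest difference on slide 4.

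**Figure D2:**
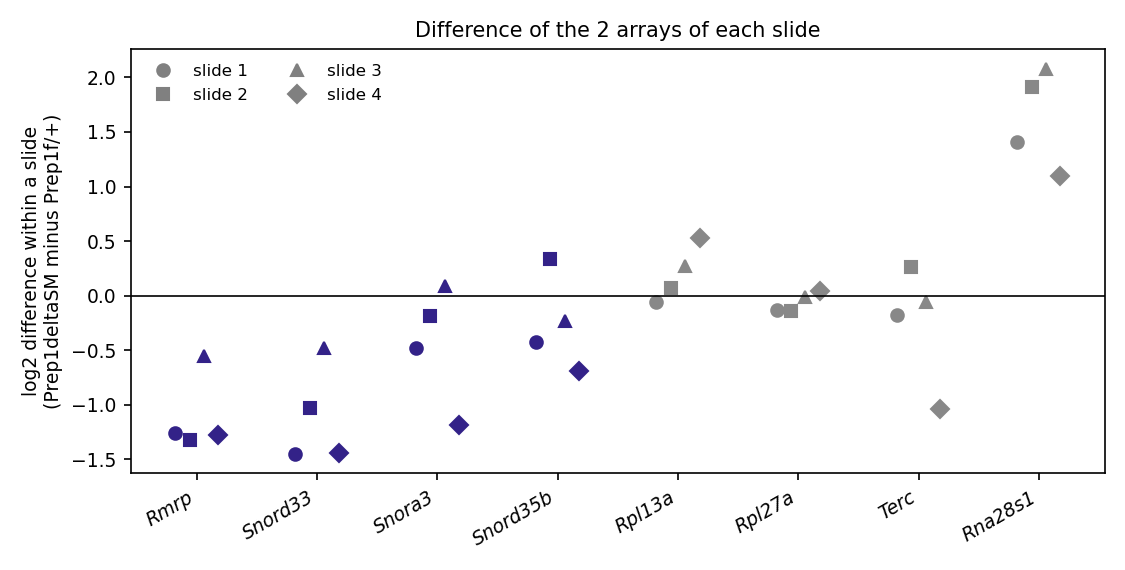
Difference in log2 signal between the Prep1deltaSM and the Prep1f/+ array of the same slide (y axis) for the 4 RNAs (purple) and for host genes, telomerase RNA and 28S ribosomal RNA (grey). The point shape is the slide, and the line at 0 marks equal signal. Rmrp and Snord33 are below 0 on all 4 slides, with slide 3 nearest to 0, and Rna28s1 is above 0 on all 4. Their groups do not overlap, which fixes these signs in advance.

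Deviations of Rmrp and Snord33 from their group means ran together over the 8 arrays, with a Pearson r of 0.84. Prep1deltaSM replicate 4 lay farthest from its group mean for both, at 2.32 against 1.87 for Rmrp and 0.54 against 0.15 for Snord33. That r rests in large part on this array. The r was 0.51 for Snord33 and Snora3, 0.48 for Snora3 and Snord35b, 0.37 for Snord33 and Snord35b, 0.21 for Rmrp and Snora3, and -0.07 for Rmrp and Snord35b. These values are descriptions over 8 arrays whose probes share the labelling, the hybridisation and the scaling of the array. Snord33 and Snord35b lie 3788 bases apart on the same strand of chromosome 7, and Rmrp lies on chromosome 4.

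The host genes of Snord33 and Snora3 encode proteins of the ribosome, and their own probes were not used to choose the set. Of these 2 host genes, 0 passed an adjusted p of 0.05 by limma, and 0 had an unadjusted p under 0.05. Rpl13a, the host of Snord33, lay at 5.20, 5.46, 5.45 and 4.99 in Prep1f/+ replicates 1 to 4 and at 5.40, 5.51, 5.52 and 5.47 in Prep1deltaSM. Its mean was 0.20 higher in Prep1deltaSM (SE 0.12, adjusted p = 0.429 by limma), with overlapping groups. The Rpl13a mRNA probe and the Snord33 probe are 157 bases apart on the same strand, and the array files list 1 transcript for both. By its mean, the mRNA signal of the host was thus not lower in the muscles in which the Snord33 signal was 2.15-fold lower. Without Prep1f/+ replicates 1 and 4 the Rpl13a difference was 0.02, and those 2 arrays held its lowest values.

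Rpl27a, the host of Snora3, lay at 2.58, 2.73, 2.80 and 2.55 in Prep1f/+ and at 2.60, 2.65, 2.59 and 2.57 in Prep1deltaSM. Its difference was -0.06 (SE 0.09, adjusted p = 0.745 by limma), the groups overlapped, and the sign turned under 3 other settings, with values of at most 0.0035. The probes of Snora3 and Rpl27a are 2025 bases apart on the same strand.

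**Figure D3:**
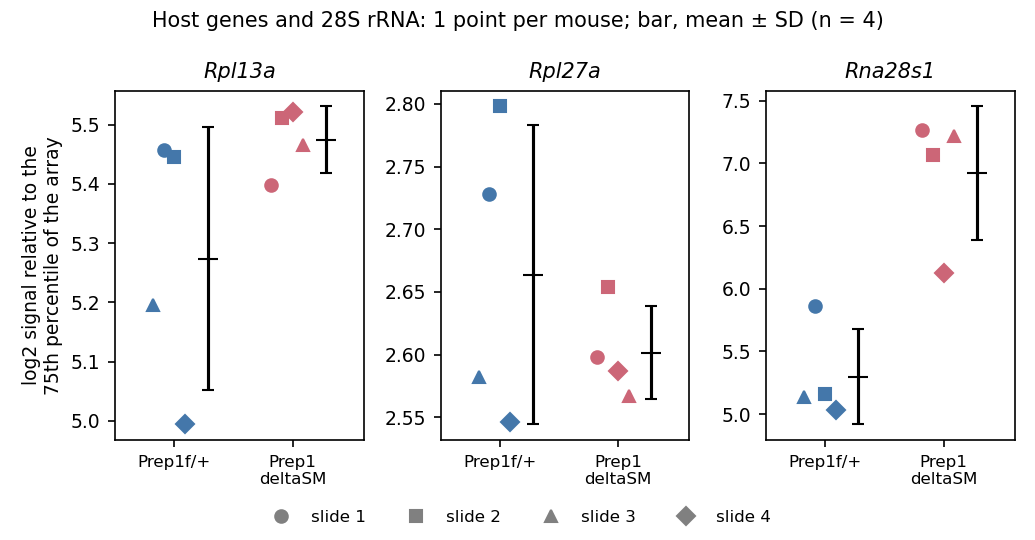
Log2 signal relative to the 75th percentile of the array (y axis, with a scale of its own in each panel) for the host genes Rpl13a and Rpl27a and for the 28S ribosomal RNA probe Rna28s1. Each point is 1 mouse, blue for Prep1f/+ and red for Prep1deltaSM, its shape is the slide, and the bars are mean ± SD (n = 4); the 2 host genes differ by 0.20 and -0.06 with overlapping groups, and Rna28s1 is 1.62 higher in Prep1deltaSM with groups apart.

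RNase MRP shares nearly all of its proteins with RNase P, the enzyme that trims the 5′ end of transfer RNAs. Of 12 listed genes of the 2 enzymes, 10 were tested and 0 passed an adjusted p of 0.05 by limma. The means were lower for 8 and higher for 2, over a range of -0.24 to 0.32, and the median was -0.10 beside -0.07 for all genes. Pop7, a subunit that binds the RNA of both enzymes, was the only 1 with an unadjusted p under 0.05 (background, 10.3% of genes lower and 5.54% higher). It lay at 2.87, 2.83, 2.64 and 2.90 in Prep1f/+ and at 2.53, 2.58, 2.64 and 2.55 in Prep1deltaSM, a difference of -0.24 (SE 0.09, adjusted p = 0.245 by limma). Its groups only just failed to overlap (background, 6.74% of genes lower and apart). The median of the list turned to 0.02 in the authors' deposited values.

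The proteins that cover mature small nucleolar RNAs, such as fibrillarin (Fbl), Nop56 and Nop58 for box C/D and dyskerin (Dkc1), Gar1, Nhp2 and Nop10 for box H/ACA, gave 8 of 8 tested genes and 0 past the adjusted threshold by limma. Of these, 4 were higher and 4 lower, between -0.22 and 0.11, with a median of 0.01. The lowest was Nhp2l1, now Snu13, which binds the bend in box C/D RNAs that starts their assembly. Its difference was -0.22 (SE 0.09, adjusted p = 0.280 by limma), and it was the 1 gene of the list with an unadjusted p under 0.05, beside 10.3% of all genes lower and 5.54% higher. Of 16 assembly factors, 14 were tested. Their median was -0.08, with 5 higher, 9 lower and 0 past the adjusted threshold by limma. Ncbp2, a subunit of the nuclear cap-binding complex, was 0.26 higher (SE 0.10, adjusted p = 0.256 by limma) and was the 1 with an unadjusted p under 0.05, against the same background. Its groups overlapped, while 2 of the 9 lower genes had groups apart (background, 6.74% of genes lower and apart).

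RNA polymerase III makes Rmrp, together with transfer RNAs and other short RNAs. Of 33 listed genes of the polymerase and its factors, 32 were tested, 10 were higher and 22 lower. The median was -0.05, and 0 passed the adjusted threshold by limma. Bdp1, a part of the initiation factor TFIIIB, was the 1 gene with an unadjusted p under 0.05, and it was higher, as were 5.54% of all genes at that p. It lay at 0.49, 0.54, 0.50 and 0.50 in Prep1f/+ and at 0.82, 0.78, 0.61 and 0.81 in Prep1deltaSM, a difference of 0.25 (SE 0.08, adjusted p = 0.222 by limma), with groups apart (background, 3.72% of genes higher and apart). Its direction is opposite to that of Rmrp and of the 22 lower genes. Of those 22, 1 had groups apart (background, 6.74% of genes lower and apart).

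On the genome, Rmrp lies between Sit1, a gene of lymphocyte signalling, and Ccdc107 in the RefSeq order. These 2 neighbours were named for their position. Sit1 had overlapping groups, with a difference of -0.71 (SE 0.29, adjusted p = 0.283 by limma), and its spread was wide, from -3.94 to -2.70 in Prep1f/+ and from -4.42 to -3.58 in Prep1deltaSM. Ccdc107 differed by -0.01 (SE 0.10, adjusted p = 0.979 by limma), and its sign turned under several alternatives. The Sit1 probe was well above background on 7 of 8 arrays, and its difference was -0.13 with normexp background correction. Leaving out Prep1f/+ replicates 1 and 4 moved it to -0.33, and replicate 1 of Prep1f/+ was its highest array.

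Other host genes make long noncoding RNAs whose introns yield small nucleolar RNAs and whose exons encode no known protein. Of 21 listed, 13 were tested. Their median was -0.01, with 6 higher, 7 lower and 0 past the adjusted threshold by limma. Snhg1 was higher in Prep1deltaSM, at -3.48, -3.65, -3.73 and -3.64 against -4.47, -4.19, -4.06 and -4.01 in Prep1f/+. The groups were apart (background, 3.72% of genes higher and apart). The difference was 0.56 (SE 0.12, adjusted p = 0.132 by limma), on a dim probe that was well above background on 7 of 8 arrays. With normexp background correction the difference was 0.10. Zfas1, named 1500012F01Rik on the array and host of Snord12 family RNAs, went the other way by -0.27 (SE 0.12, adjusted p = 0.314 by limma).

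Of 26 other structured or nuclear noncoding RNAs listed, 6 were tested: Terc, Rna28s1, Rn18s, Malat1, Neat1 and 2900097C17Rik, now Norad. By limma 0 passed the adjusted threshold, 4 were higher and 2 lower, and the median was 0.27, or 0.04 without Prep1f/+ replicates 1 and 4. Terc, the RNA of telomerase, carries an H/ACA domain like that of Snora3. It differed by -0.25 (SE 0.30, adjusted p = 0.706 by limma), which rests on Prep1deltaSM replicate 3 at -3.53, since the other 3 lay between -2.34 and -2.03. Without that array the difference was 0.08.

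The 28S ribosomal RNA probe Rna28s1 had the largest difference among these 6 RNAs, in the direction opposite to Rmrp and Snord33. It lay at 5.14, 5.86, 5.16 and 5.03 in Prep1f/+ and at 7.26, 7.07, 6.13 and 7.22 in Prep1deltaSM replicates 1 to 4. The groups were apart (background, 3.72% of genes higher and apart), with a difference of 1.62 (SE 0.28, adjusted p = 0.119 by limma), or 3.08-fold higher. Replicate 3 of Prep1deltaSM was the lowest of its group, and replicate 4, the highest of its group for Rmrp and Snord33, was among the other 3. Within slides 1 to 4 the difference was 1.40, 1.91, 2.08 and 1.096. The 18S ribosomal RNA, Rn18s, differed by -0.22 (SE 0.12, adjusted p = 0.408 by limma) on its brightest probe and by -0.03 on the other, both with overlapping groups. Before scaling, the signal of the brightest probe was 593000 to 626000 in Prep1f/+ and 584000 to 635000 in Prep1deltaSM. The -0.22 thus depends on the scaling. With quantile normalization the level of this probe was 19.21 on every array. That method gives probes of equal rank the same value, so nothing is read from its difference of 0. Ribosomal RNA has no poly(A) tail either, and many near-identical copies, so the gene copy behind these signals is uncertain.

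Norad, a cytoplasmic RNA that binds Pumilio proteins, was higher, at 1.42, 1.57, 1.32 and 1.28 against 0.87, 0.64, 0.70 and 0.77. Its groups were apart (background, 3.72% of genes higher and apart), with a difference of 0.65 (SE 0.10, adjusted p = 0.0897 by limma). The adjusted p was 0.0306 with normexp and quantile normalization, 0.0339 with a trended robust fit and 0.0458 with array weights, and 0.345 at most over all alternatives. It was the only gene of the 9 lists to pass under any alternative. Malat1, a nuclear speckle RNA, differed by 0.18 (SE 0.10, adjusted p = 0.405 by limma) on its brightest probe and by 0.38, 0.48 and 0.56 on the others, with groups apart on the last 2. Neat1, the RNA of paraspeckles, differed by 0.37 (SE 0.26, adjusted p = 0.515 by limma) and by -0.09 without Prep1f/+ replicates 1 and 4.

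The precursor of ribosomal RNA is the substrate of RNase MRP and of most small nucleolar RNAs. Of 56 listed genes for its synthesis and processing, 55 were tested. Their median was -0.02, and 25 were higher and 30 lower. By limma 0 passed the adjusted threshold, while 6 higher and 3 lower had an unadjusted p under 0.05, beside 5.54% and 10.3% of all genes. The 3 lower of 55 are a smaller share than among all genes, and the 6 higher of 55 are a larger one. Neither share was tested. Among the higher were the RNA helicase Ddx52, by 0.48 (SE 0.14, adjusted p = 0.192), and Nat10, which acetylates 18S ribosomal RNA, by 0.35 (SE 0.11, adjusted p = 0.214). Among the lower were Mphosph10, a part of the U3 particle, by -0.26 (SE 0.08, adjusted p = 0.217), and Rrp1b by -0.24 (SE 0.08, adjusted p = 0.222). All 4 had groups that did not overlap, as had 3.72% of all genes that were higher and 6.74% that were lower. Over the list of 55, 6 higher and 5 lower genes had such groups. Mphosph10 was higher by 0.11 in the authors' deposited values.

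The nuclear exosome trims and degrades noncoding RNAs and introns. All 22 listed genes of the exosome and related decay were tested. Their median was -0.09, and 5 were higher and 17 lower. By limma 0 passed the adjusted threshold, and 2 of 22, both lower, had an unadjusted p under 0.05, a share near the 10.3% of all genes. Exosc7, a subunit of the exosome ring, lay at -0.23, -0.58, -0.44 and -0.53 in Prep1f/+ and at -1.08, -0.76, -0.81 and -0.84 in Prep1deltaSM, a difference of -0.43 (SE 0.11, adjusted p = 0.176 by limma). Exosc5, another ring subunit, differed by -0.34 (SE 0.11, adjusted p = 0.218 by limma), and the groups of both were apart, as for 6.74% of all genes. Of the 5 higher genes, 1 had groups apart (background, 3.72% of genes higher and apart).

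**Figure D4:**
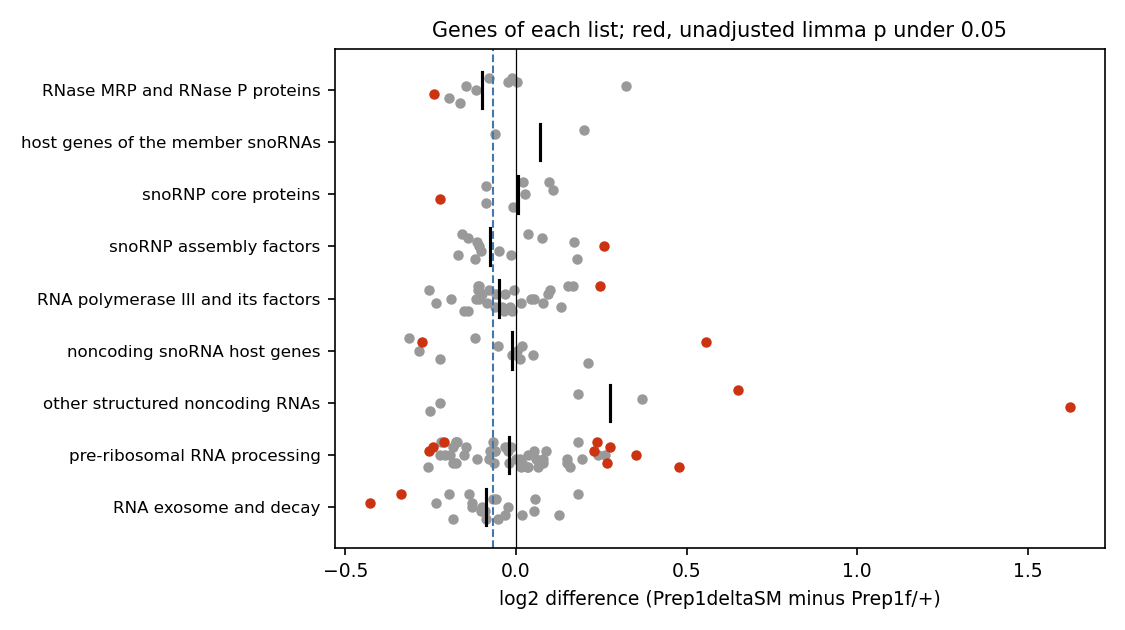
Difference in log2 signal, Prep1deltaSM minus Prep1f/+ (x axis), for each tested gene of the 9 lists (rows). Points are genes, red where the unadjusted limma p is under 0.05, black bars are list medians and the dashed line is the median of all genes at -0.07; list medians lie between -0.10 and 0.07 except for the 6 other structured noncoding RNAs, at 0.27.

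The genes whose pattern over the 8 arrays was most like that of each RNA were ranked by Pearson r among all tested genes. For Rmrp they were Rrnad1 (r = 0.99), the linker histone gene Hist1h1a (0.98) and AY036118 (0.98). The r of deviations from the group means was 0.97, 0.83 and 0.88. Their own differences between genotypes were -0.58, -0.87 and -2.29, all in the direction of Rmrp. For Snord33 they included Taf10 (0.98), a subunit of TFIID, and Rmrp itself (0.98). The r of deviations was 0.95 and 0.84, and the difference of Taf10 between genotypes was -0.36. The r over 8 arrays contains the difference between genotypes, and Rmrp and Snord33 were chosen for theirs. Nothing is therefore read from the rank of Rmrp here, or from the direction that the genes named share with it.

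For Snora3 the most similar were Nfyb (0.96), a subunit of the CCAAT-binding factor NF-Y, Ece2 (0.94) and the unnamed array entry NAP021083-001 (0.94). For Snord35b they were Mreg (0.94), B230208H17Rik, now Rabl6 (0.94), and Agpat3 (0.93). The genotype differences of these 6 were small, between -0.22 and -0.08. A ranking over 8 arrays and this many genes yields high r values readily, and the r values carry no p.

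Muscle fibre markers were bright in both groups, and their sums overlapped. Their summed level, in units of the 75th percentile, was 12130 to 14740 in Prep1f/+ and 12450 to 13570 in Prep1deltaSM, with 10 of 10 markers above the filter. Single fibre markers differed by -1.02 to 0.16, with 4 higher and 6 lower. Of these, 1 was lower at an unadjusted limma p under 0.05 (10.3% of all genes). Another 1 was higher with groups apart (3.72% of all genes). Of 10 marker lists, the satellite cell list was the only 1 whose summed levels did not overlap, at 36.8 to 42.0 against 27.4 to 32.4. It had 6 of 7 markers above the filter, with Myf5 below it, and 4 of the 6 were lower. Its sum is made up mostly of Cd34, which endothelium expresses too and which was lower by -0.35 (SE 0.09, adjusted p = 0.178 by limma), while Cdh15 was lower by -0.64 (SE 0.10, adjusted p = 0.0897 by limma). The summed levels of the other lists overlapped, but markers of several other cell types were mostly lower in Prep1deltaSM. Of all genes, 62.7% were lower, and 10.3% were lower at an unadjusted limma p under 0.05. Fibroblast markers were lower for 9 of 10, with a median of -0.42 and 5 lower at an unadjusted p under 0.05, and summed to 404.8 to 688.7 in Prep1f/+ and 308.5 to 708.7 in Prep1deltaSM. Leukocyte markers were lower for 9 of 9 above the filter, with a median of -0.47 and 3 at an unadjusted p under 0.05, and summed to 16.9 to 36.3 against 11.7 to 20.1. Tendon markers were lower for 7 of 7, with a median of -0.53, and summed to 41.6 to 67.1 against 34.7 to 50.8.

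Adipocyte markers were lower for 6 of 6, with a median of -1.03, and summed to 134.4 to 171 against 101.2 to 167.8, with Lep and Pck1 below the filter. Erythroid markers went the other way, with 3 of 4 higher and a median of 0.94, and summed to 94.0 to 354.9 against 151.2 to 676.1. Endothelial markers were mixed, with 3 higher, 4 lower and a median of -0.05. Schwann cell markers were higher for 5 and lower for 2, with a median of 0.01. Proliferation markers were higher for 3 and lower for 6, with a median of -0.13. By limma 0 genes of the 10 marker lists passed the adjusted threshold. The part of these cell types in the signal of the 4 RNAs was not tested.

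Of 21 other processing settings, 7 cannot move the differences of the 4 RNAs, which have 1 probe each that is above background on all arrays, and return the values given above. Under the other 14 all 4 differences were below 0. For Rmrp and Snord33, whose groups do not overlap, leaving out or weighting arrays could not turn the sign. The difference ran from -1.25 to -0.90 for Rmrp, from -1.23 to -0.81 for Snord33, from -0.59 to -0.18 for Snora3 and from -0.40 to -0.05 for Snord35b. The end nearest to 0 came in all 4 from normexp background correction followed by quantile normalization. Leaving out Prep1deltaSM replicate 4 gave the largest differences for Rmrp and Snord33.

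**Figure D5:**
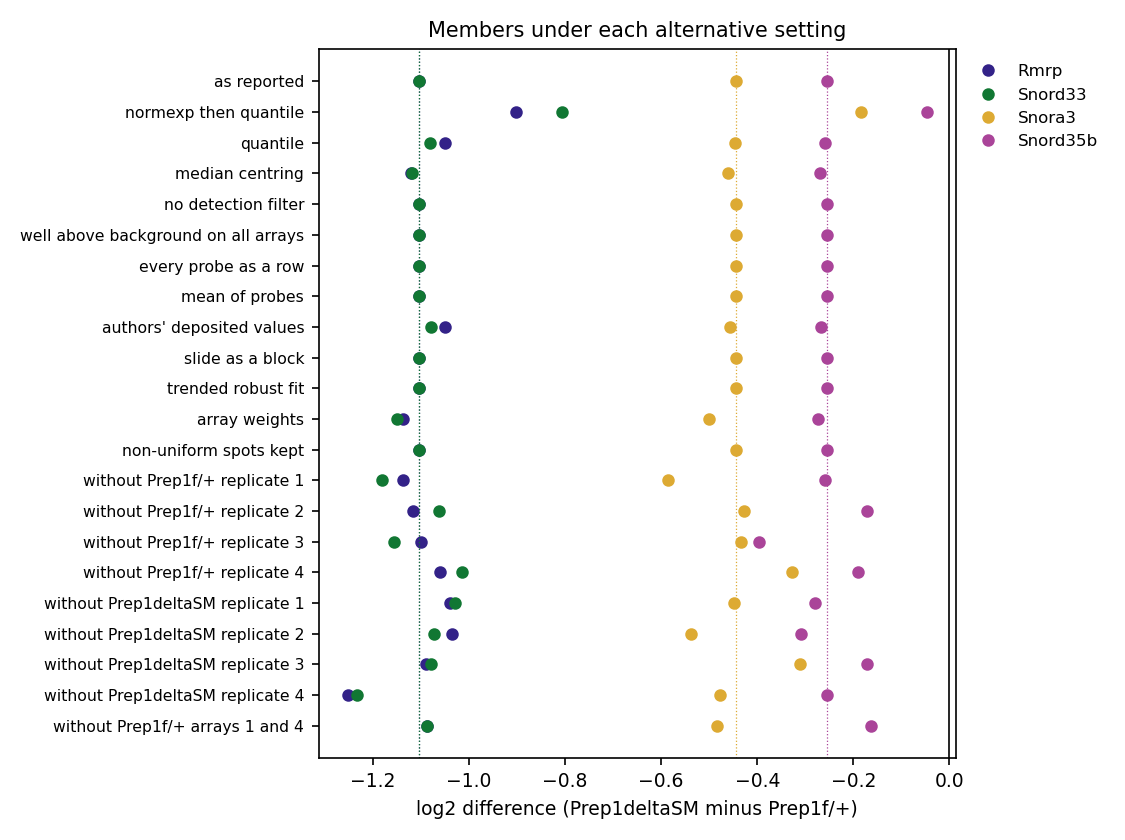
Difference in log2 signal, Prep1deltaSM minus Prep1f/+ (x axis), of the 4 RNAs under the reported setting (dotted lines) and each alternative (rows), with 1 colour per RNA; where points coincide, as for Rmrp and Snord33 at -1.10, only 1 is visible. All points are below 0, and the normexp row lies nearest to 0 for each RNA. For Rmrp and Snord33, leaving out or weighting arrays could not bring a point above 0.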

How the data were processed

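RNA of 8 muscles, 1 array each, was Cy3-labelled and read on Agilent arrays (design 014868). The authors deposited 1 intensity per spot, background-subtracted by Feature Extraction 10.5.1.1 (protocol GE1_107_Sep09) per the file headers; version 9.1 is named in the submitters' processing notes. The authors also deposited a table of intensity values of 32812 rows with column medians of 12.7 to 13.2, which set against the scanner files was linear, quantile-normalized and uncentred: 26248 rows, the 4 RNAs among them, lay within 0.1 log2 of quantile-normalized scanner values. How other rows were collapsed is unknown.

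Each log2 intensity was set against its array's 75th percentile. Between 0 and 11 non-uniform spots an array were dropped, and repeat spots of a probe averaged. A probe had to be well above background on at least 4 of 8 arrays (24488 of 41174), and the brightest stood for its gene (16016 genes, of which 13570 matched a RefSeq name; GRCm38.p6). The groups were fitted in limma 3.58.1 (lmFit, eBayes; R 4.3.3), and p-values were adjusted over all genes by the method of Benjamini and Hochberg. For the 4 RNAs the SE comes from the pooled SD of the 2 groups, elsewhere from limma.

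The 4 RNAs, the 9 gene lists, the 10 marker lists and the tests were chosen with earlier results of these data known. The genes named are the 4 RNAs, Pknox1, the hosts, other structured noncoding RNAs above the filter, list genes with an unadjusted p under 0.05 (up to 4 per list, by p) and the 3 genes most like each RNA; 2 genes that the rule covers are not reported here. Outside this rule, the neighbours of Rmrp were named by position and Cd34, Cdh15, Myf5, Lep and Pck1 after their values were seen. Alternatives were other background correction, scaling, filters and ways to join probes, arrays left out, non-uniform spots kept, array weights, the authors' values, a trended and robust fit, and slide as a block. On simulated data with 16016 genes, the fit recovered 30% of genes changed 1.5-fold, 67% changed 2-fold and 94% changed 3-fold, with 8 false calls. The simulation changed 50, 100 and 50 genes by these folds and drew the noise of each gene on its own. Real arrays share variation between genes, so recovery there can be lower. In the real data 101 genes were lower and 41 higher by at least 1 log2, and 1 gene passed. A gene short of the threshold is therefore not shown to be unchanged.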

Additional observations from a re-analysis of the deposited data

Results flagged for a closer look

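In 4 of 74 groups of 4 arrays, 1 array lay so far from the others that its gap, as a share of the group's range, passed Dixon's critical value for 4; chance gives about 3.7 such groups. None of the 4 RNAs was among them. The share was 0.8495 for Rna28s1 in Prep1f/+ replicate 2, the highest of its group and still below every Prep1deltaSM value. It was 0.834 for Bdp1 in Prep1deltaSM replicate 3, the lowest of its group. It was 0.913 for 1500012F01Rik (Zfas1) in Prep1f/+ replicate 4, the lowest of its group. It was 0.853 for the summed leukocyte markers in Prep1deltaSM replicate 4, the lowest of its group.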

How the results depend on the processing

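Of the 14 alternatives that can move them, 0 turned the sign of Rmrp, Snord33, Snora3 or Snord35b. For Rmrp and Snord33, whose groups do not overlap, leaving out or weighting arrays could not turn it. The Snord33 difference moved to -0.81 with normexp and quantile normalization. Genes past the adjusted threshold, 1 as reported, numbered 26 with normexp, 20 with a trended robust fit, 22 with array weights, 0 with slide as a block, 0 without Prep1f/+ replicates 1 and 4, and 0 to 5 with 1 array left out. Over the 9 lists, 1 gene (Norad) passed with normexp, with the trended robust fit and with array weights. Genes lower with groups apart, 1079 as reported, numbered 559 in the authors' values, 3592 without Prep1f/+ replicates 1 and 4, and 1275 to 2029 with 1 array left out (2029 without Prep1f/+ replicate 4, 1772 without Prep1deltaSM replicate 4); fewer arrays overlap less often by construction. Differences that turned sign were Rpl27a (0.0035 with normexp, 0.0020 with quantile, 0.00064 in the authors' values), Ccdc107 (0.057 with normexp, 0.038 with quantile, 0.043 in the authors' values, and -0.065 to 0.054 with 1 array left out), Mphosph10 (0.11) in the authors' values, Terc (0.084 without Prep1deltaSM replicate 3, and -0.415 to 0.084 with 1 array left out) and Neat1 (-0.090 without Prep1f/+ replicates 1 and 4). The cause was not tested. The Pknox1 difference was -0.89 with normexp. Its adjusted p was 0.0605 to 0.0738 under the 5 alternatives in which it missed the threshold. Arrays were paired only through the slide, as a block; no analysis paired by replicate number was possible, because the labels give no number that mice of both genotypes share. Signals of 21 to 57.8 limit what can be said of Snora3 and Snord35b.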
